A study of Mus musculus with 2 samples.

Results

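The genes described here are 10 genes of the smooth-muscle contractile machinery, Acta2, Actg2, Tagln, Cnn1, Cnn2, Tpm1, Tpm2, Cald1, Myl9 and Mylk, chosen by name from the 17408 genes of the deposited table. All 10 were in the table and all 10 passed a mean of at least 0.1 unique molecular identifiers (UMIs, one per captured RNA molecule) per 10000 UMIs of a cell, as did 7131 genes in all. They were measured in 2 libraries of unsorted mouse embryonic fibroblasts (MEFs) at day 16 of reprogramming towards induced pluripotent stem cells (iPSCs), which form 1 group and are called replicate 1 and replicate 2 by accession order. Every cell came from MEFs with STEMCCA, a doxycycline-inducible cassette of Pou5f1, Sox2, Klf4 and Myc, kept in mouse ESC medium with LIF, ascorbic acid and doxycycline. Per the study, the populations came from a pair of independent transgenic STEMCCA mouse systems, but the labels tie neither library to a system. A difference between the libraries can therefore not be told apart from one between the systems. No control without the cassette or the drug was analysed here. Replicate 1 held 3109 cells and 54145377 UMIs, replicate 2 held 3914 cells and 64654306 UMIs, and the libraries shared 12 cell barcodes.

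Smooth-muscle cells contract when myosin pulls on actin filaments. Phosphorylation of the myosin regulatory light chain by myosin light chain kinase switches the motor on, while tropomyosin, caldesmon, calponin and transgelin sit along the actin filament and set its access and stability. Cultured fibroblasts that take on myofibroblast features carry many of the same proteins in their stress fibres, and pluripotent cells are known to have little of this apparatus.

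Cells were grouped into 15 transcriptional states by clustering that left these 10 genes out, together with 71 genes of wider contractile lists, the sex-linked genes and the reprogramming factors. Of these states, 11 had at least 30 cells in both libraries and are described by their leading genes. One of them, state 6 (Dppa5a, Pou5f1, Utf1), is pluripotent-like, with 9 of 10 pluripotency markers at least 2-fold higher than in other cells. State 8 (Spp1, Mmp3, Col10a1) had 9 of 11 fibroblast markers raised in the same way. State 5 (Prss23, Igfbp7, Col8a1) had 8 of 11 fibroblast markers raised, and Mylk led it by fold although Mylk took no part in the clustering. A level is the mean over cells of UMIs per 10000, folds and log2 ratios are taken after adding 0.1, and pairs of values are given as replicate 1 and then replicate 2. No test is given, since the lowest p that exact sign flips over 2 libraries allow is 0.5 (two-sided), and each count is set beside its share over all 7131 genes.

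The CArG box, bound by serum response factor, and the MCAT box, bound by TEAD factors, are textbook control elements of this gene class. The promoters of Acta2, Myl9 and Cnn2 are shown because they held a CArG box, and that of Mylk because its level was the most concentrated in a single state. RefSeq windows from 250 bases before to 50 bases after the annotated start (GRCm38.p6) were matched for 8 of the 10 members and gave 9 windows, and neither Tagln nor Actg2 was matched. Capitals mark a CArG box (CC, a run of A and T, GG, with 1 C or G allowed in the run) or an MCAT box (CATTCC), searched on both strands. Acta2 is at chr19:34255324-34255623 on the minus strand, Myl9 at chr2:156775214-156775513 on the plus strand, Cnn2 at chr10:79988350-79988649 on the plus strand and Mylk at chr16:34784700-34784999 on the plus strand. The Mylk window is that of an internal start, as the gene itself begins upstream at 34745210. The starts used for Acta2, Myl9 and Cnn2 also lie within their gene intervals, though far closer to the gene's first base. Distances are counted from the start used for each window.
Acta2: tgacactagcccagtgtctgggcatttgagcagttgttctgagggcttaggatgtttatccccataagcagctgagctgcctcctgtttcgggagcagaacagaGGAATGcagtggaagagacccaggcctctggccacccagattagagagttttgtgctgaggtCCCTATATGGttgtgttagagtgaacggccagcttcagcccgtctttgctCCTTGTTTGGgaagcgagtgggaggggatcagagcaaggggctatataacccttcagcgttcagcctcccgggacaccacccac
Myl9: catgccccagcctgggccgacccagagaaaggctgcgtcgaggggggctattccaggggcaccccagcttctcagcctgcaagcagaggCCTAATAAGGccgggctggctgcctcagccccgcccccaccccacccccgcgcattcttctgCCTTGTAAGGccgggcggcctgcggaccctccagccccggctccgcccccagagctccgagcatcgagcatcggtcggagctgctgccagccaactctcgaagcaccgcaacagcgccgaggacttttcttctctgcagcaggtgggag
Cnn2: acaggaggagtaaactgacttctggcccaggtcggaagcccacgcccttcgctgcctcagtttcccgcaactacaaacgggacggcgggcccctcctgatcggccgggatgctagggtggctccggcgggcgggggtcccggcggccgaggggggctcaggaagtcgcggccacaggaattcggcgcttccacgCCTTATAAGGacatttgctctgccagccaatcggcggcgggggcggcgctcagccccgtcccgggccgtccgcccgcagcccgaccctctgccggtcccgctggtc
Mylk: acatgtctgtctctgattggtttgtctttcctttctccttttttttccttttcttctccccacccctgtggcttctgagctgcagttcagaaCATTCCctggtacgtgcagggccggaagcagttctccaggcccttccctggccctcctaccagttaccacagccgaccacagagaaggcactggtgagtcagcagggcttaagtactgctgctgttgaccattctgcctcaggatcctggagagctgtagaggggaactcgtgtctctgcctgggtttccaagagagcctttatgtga

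Acta2 had CArG boxes starting 84 and 34 bases before the annotated start and an MCAT box 146 bases before it. Myl9 had CArG boxes at 161 and 99 bases, Cnn2 had one at 56 bases and Mylk an MCAT box 158 bases before its internal start. Tpm1 and the upstream window of Cald1 each held an MCAT box, and neither motif was found in the windows of Tpm2 and Cnn1. A CArG box without the exception in its run was in 2 of the 9 windows against 1.63% of 32851 promoters of the same length. With the exception the box was in 3 of the 9 windows against 9.98%, and the MCAT box in 4 of the 9 against 14.7%. These are matches of letters in a short window and say nothing of binding in these cells.

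The first comparison was between pluripotent-like cells (146 and 391 cells) and all other cells (2963 and 3523 cells). Of the 10 genes, 9 were at least 2-fold lower in the pluripotent-like state of each library, against 15.0% of all genes tested. The exception was Cnn1, which was 2.72- and 1.49-fold lower. The median log2 ratio of the 10 genes was −2.98 and −2.37 (mean −2.67 ± 0.43, SD, n = 2), where the median of all genes was −0.18 and −0.13.

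Acta2, Tagln, Actg2 and Cald1 had the largest ratios. Acta2, smooth-muscle alpha-actin, was at 0.913 and 0.701 in pluripotent-like cells and at 18.6 and 11.6 in the other cells, which is 18.5- and 14.6-fold lower. Actg2, smooth-muscle gamma-actin, was at 0.666 and 0.501 against 11.3 and 7.26, and was 14.9- and 12.2-fold lower. Every other state with 30 cells in both libraries had Acta2 at 3.58 or more and Actg2 at 2.95 or more. States with fewer cells are not covered by this, and some of them had lower levels (below). Tagln, the actin-bundling protein transgelin, was at 0.388 and 0.267 against 7.27 and 4.63, and was 15.1- and 12.9-fold lower. Cald1, caldesmon, which holds myosin off the filament, was at 0.522 and 0.682 against 8.73 and 7.16, and was 14.2- and 9.29-fold lower.

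The remaining genes had smaller ratios. Myl9, a regulatory light chain of myosin, was 8.81- and 5.32-fold lower, and Tpm2, beta-tropomyosin, 7.03- and 5.04-fold lower. Tpm1, alpha-tropomyosin, kept a level of 1.24 and 1.23 in pluripotent-like cells against 5.69 and 4.27 elsewhere. Cnn2, a calponin also made outside muscle, kept 0.785 in both libraries against 2.88 and 2.01. Mylk, myosin light chain kinase, was at 0.0448 and 0.0134 against 0.564 and 0.164, and Cnn1, the smooth-muscle calponin, at 0.0167 and 0.0144 against 0.217 and 0.0706. For Mylk and Cnn1 both sides were low enough that the added 0.1 sets much of the ratio.

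**Figure D1:**
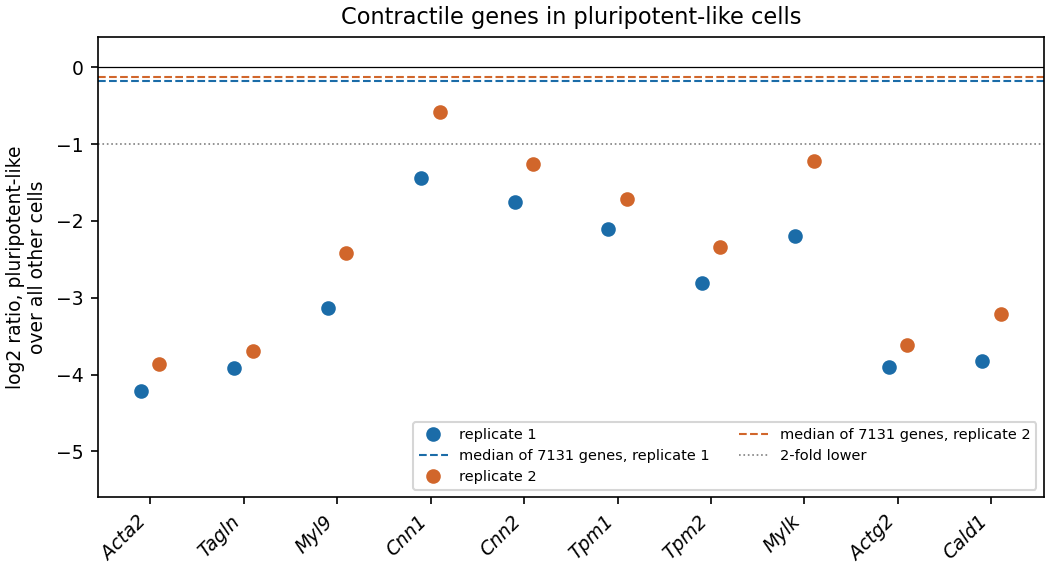
Each point is the log2 ratio of a gene's level (mean UMIs per 10000, plus 0.1) in pluripotent-like cells over all other cells of 1 library, with dashed lines at the median of all 7131 genes and a dotted line at a 2-fold lower level. Every point but Cnn1 in replicate 2 lies below the dotted line, and Acta2 is lowest at −4.21 and −3.87.

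Droplets also catch free RNA, so the residual levels of Acta2 and Actg2 were set beside 4 and 9 macrophage-like cells (6 of 6 macrophage markers raised), a cell type not known for these actins. In the macrophage-like cells Acta2 was at 1.81 and 0.419 and Actg2 at 0.177 and 0.534, from 7, 4, 1 and 4 UMIs. With each cell thinned to 4500 UMIs, Acta2 was found in 30.8% and 21.2% of the pluripotent-like state and in 22.2% of the 9 macrophage-like cells of replicate 2, where the exact interval runs from 2.81% to 60.0%. In replicate 1 it was found in 75.0% of the 4 macrophage-like cells (19.4% to 99.4%). Median depth was 28768 and 26097 UMIs in pluripotent-like cells and 8665 and 8833 in macrophage-like cells, before thinning. With so few macrophage-like cells, the actin levels left in pluripotent-like cells could not be separated from background.

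Among the 11 states all 10 genes were highest in state 5 (351 and 255 cells) in both libraries, as were 8.09% of all genes tested. The genes that defined state 5 were other genes of the same cells, so this is a description of the cluster and no test. Together the 10 genes gave 121 and 98.9 UMIs per 10000 in state 5, which is 1.21% and 0.989% of its UMIs, against 5.02 and 4.65 per 10000 in pluripotent-like cells. Of the 10 genes, 9 had at least a 4-fold range between the highest and lowest state in both libraries, against 15.5% of all genes tested, and the exception was again Cnn1 (7.51- and 3.93-fold). The added 0.1 sets much of the Cnn1 range, as its lowest states were at 0.0092 and 0.0052 and its highest at 0.720 and 0.314. The median range of the 10 genes was 4.55 and 3.87 on the log2 scale, against 1.11 and 1.06 over all genes. The summed level of the 11 fibroblast markers was 88.2 and 71.7 per 10000 in state 5, 128 and 94.1 in state 8 and 3.81 and 3.02 in pluripotent-like cells, with none of them at 0 in state 5.

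**Figure D2:**
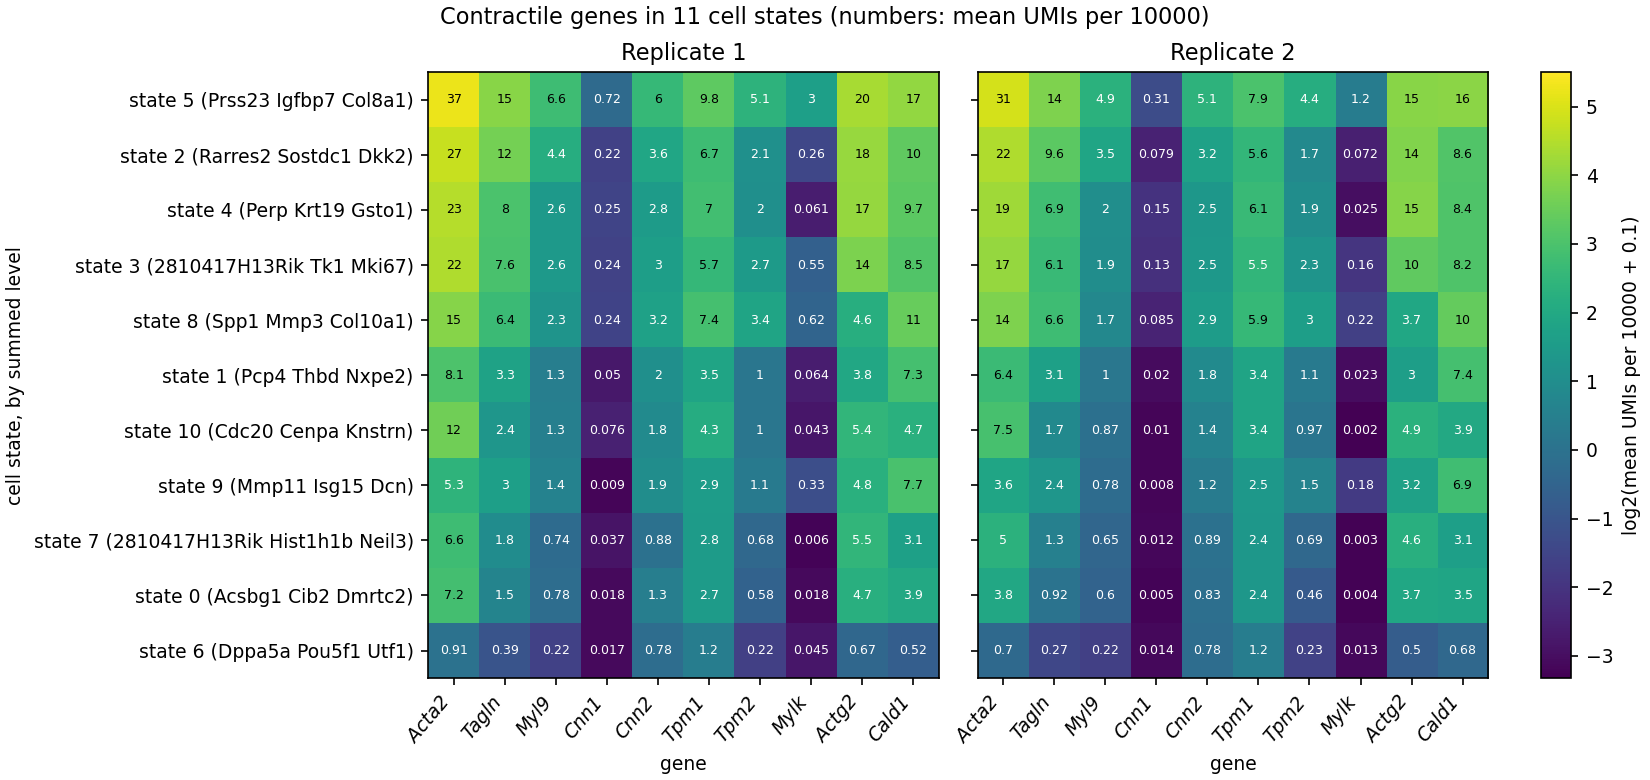
Rows are the 11 states with at least 30 cells in both libraries, columns the 10 genes and panels the libraries, with each cell's number the level in mean UMIs per 10000 and its colour the log2 of that level plus 0.1. State 5 is the top row for every gene and state 6 the lowest row by summed level, with Acta2 running from 37.4 to 0.913 in replicate 1.

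Acta2 (chr19:34241090-34255590, GRCm38, minus strand) was at 37.4 and 30.5 in state 5. It was at 27.0 and 21.7 in state 2 (Rarres2, Sostdc1, Dkk2), 22.7 and 19.0 in state 4 (Perp, Krt19, Gsto1) and 21.9 and 17.2 in state 3, a cycling state led by Tk1 and Mki67. State 5 stood clear of these, while state 2 overlapped state 4 and state 4 overlapped state 3. Next came state 8 at 14.8 and 13.9 and state 10 (Cdc20, Cenpa, Knstrn) at 11.8 and 7.52. The other states outside the pluripotent-like one, led by Pcp4 (state 1), Hist1h1b (state 7), Acsbg1 (state 0) and Mmp11 (state 9), lay between 3.58 and 8.09, and neighbours in this part of the order overlapped. The order of the 11 states had a Spearman rho of 0.991 between the libraries, and the range was 37.0- and 38.3-fold, or 6.96- and 8.32-fold without the pluripotent-like state.

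Actg2 (chr6:83512905-83536265, minus strand) followed another order in part. Its level in state 5, 20.2 and 15.2, overlapped state 4 at 17.2 and 14.8 and was 1.14- and 1.03-fold above the next state of each library. State 3 was lower, at 13.6 and 10.2. State 8 had rank 5 in the order of Acta2 and rank 8 in that of Actg2, at 4.56 and 3.74, where it overlapped its neighbours.

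The ratio of Actg2 to Acta2 UMIs therefore varied between states. It was 0.332 and 0.288 in state 8, with 95% counting intervals of 0.316 to 0.349 and 0.268 to 0.310. In state 5 it was 0.566 and 0.512 and in state 4 0.796 and 0.768. State 9 was higher still, at 0.928 and 0.975. The counting intervals of the libraries did not overlap in states 3, 5 and 8, nor in state 0, at 0.678 and 1.00, and state 10, at 0.480 and 0.684. State 8 lay below every other of the 11 states in both libraries. The actins are similar in sequence and reads could be split between them, and as 3′ counts are not levels per length only changes of the ratio are read here.

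**Figure D3:**
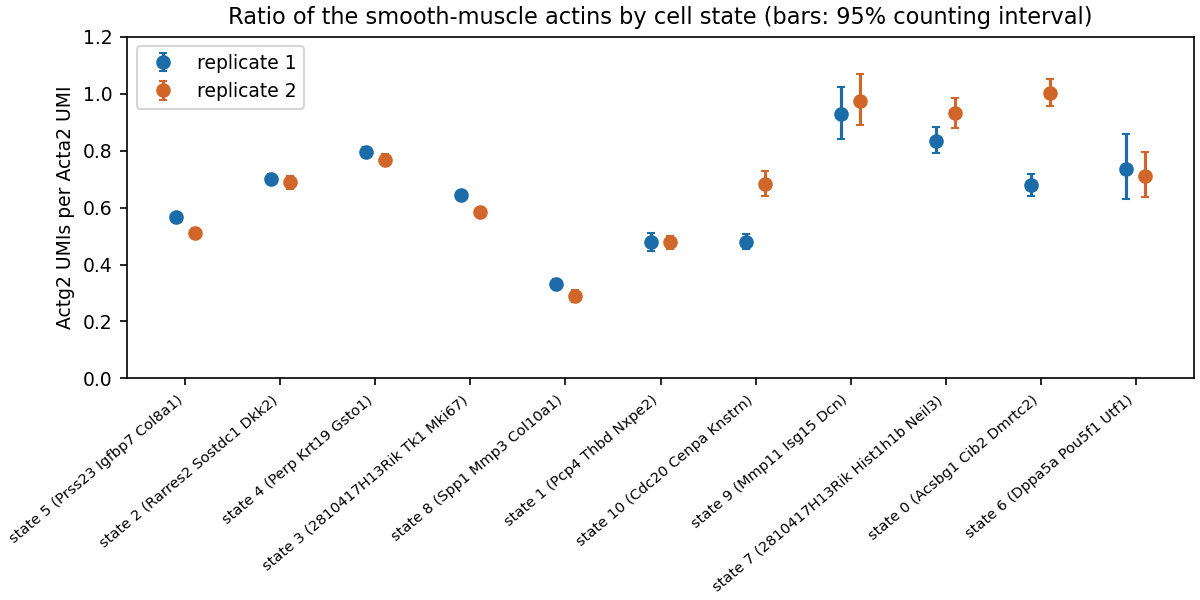
Points are Actg2 UMIs per Acta2 UMI, summed over the cells of each library in the 11 states with at least 30 cells in both libraries, with bars for the 95% counting interval, which covers counting error only. Among these 11, state 8 is lowest in both libraries at 0.332 and 0.288, and the libraries part most in state 0 at 0.678 and 1.00.

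The proteins along the actin filament came next. Tagln (chr9:45929619-45936058, minus strand) was at 15.2 and 13.7 in state 5, 12.4 and 9.62 in state 2, 7.95 and 6.87 in state 4 and 7.63 and 6.14 in state 3. States 5 and 2 stood apart from each other and from the rest. In state 0 it was at 1.49 and 0.919, so that it ranged 9.61- and 13.5-fold even without the pluripotent-like state.

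Tpm1 (chr9:67022590-67049406, minus strand) was at 9.77 and 7.88 in state 5 and then at 7.36 and 5.93 in state 8, which overlapped states 4 and 2. Outside the pluripotent-like state it ranged 3.48- and 3.14-fold. Tpm2 (chr4:43514711-43523765, minus strand) was at 5.11 and 4.41 in state 5, 3.43 and 2.98 in state 8 and 2.67 and 2.25 in state 3. Only 2 of its 10 neighbouring pairs of states overlapped, the fewest of the 10 genes. Tpm1 and Cald1 each come in several isoforms that 3′ counts do not tell apart.

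Cald1 (chr6:34598500-34775473, plus strand) was at 16.6 and 15.7 in state 5, 10.8 and 10.5 in state 8 and 10.1 and 8.57 in state 2, and 3 of its 10 neighbouring pairs overlapped. It stayed at 7.68 and 6.89 in state 9 and 7.30 and 7.43 in state 1, which lie in the lower part of the Acta2 order. Cnn2 (chr10:79988584-79996062, plus strand) was at 5.98 and 5.05 in state 5, 3.63 and 3.18 in state 2 and 3.24 and 2.87 in state 8. Its level in state 7, 0.879 and 0.889, was close to the 0.785 of pluripotent-like cells.

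Cnn1 (chr9:22099216-22109630, plus strand) was the most sparsely captured of the calponins. It was at 0.720 and 0.314 in state 5, 0.249 and 0.147 in state 4 and at most 0.0757 in 6 states, and 8 of 10 neighbouring pairs overlapped. With cells thinned to 4500 UMIs it was found in 17.4% and 10.6% of state 5 cells.

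On the myosin side, Myl9 (chr2:156775420-156781658, plus strand) was at 6.62 and 4.92 in state 5, 4.37 and 3.52 in state 2 and 2.56 and 1.96 in state 4. States 5 and 2 again stood apart. Mylk (chr16:34745210-35002420, plus strand) was the gene most concentrated in state 5, at 3.05 and 1.21 there. The next state, state 8, had 0.616 and 0.222. State 3 had 0.554 and 0.160 and state 9 had 0.333 and 0.185, while state 4, among the highest for Acta2 and Actg2, had 0.0615 and 0.0246.

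State 5 held 64.2% and 51.8% of all Mylk UMIs with 11.3% and 6.52% of the cells. For Acta2 the share was 21.5% and 15.9%, and for the other members it lay between 10.8% and 37.7%. Even in state 5 Mylk was found in 40.7% and 25.5% of cells thinned to 4500 UMIs, against 2.05% and 0.512% of the pluripotent-like state. Mylk also encodes telokin, a short protein from its 3′ end, which these counts do not separate from the kinase.

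States with raised cell-cycle markers lay far apart in the order, a contrast chosen after the values were seen. The pluripotent-like state, the lowest by summed level, itself had 4 of 8 S-phase and 7 of 8 G2 and M markers raised. State 3, with 6 of 8 S-phase and 8 of 8 G2 and M markers raised, had a summed level of 66.3 and 54.2 per 10000, and state 7, with 8 of 8 S-phase markers raised, had 22.2 and 18.8. All 10 genes were at least 2-fold higher in state 3 than in state 7 in both libraries, against 3.38% of all genes tested. Acta2 was 1.71 and 1.75 higher on the log2 scale and Tagln 2.00 and 2.11. Depth in these states was close, with median UMIs of 20587 and 21725 in state 3 and 18884 and 17955 in state 7. The states differed in more than cycling. The summed level of the fibroblast markers was 39.8 and 26.1 in state 3 against 6.16 and 5.48 in state 7. State 10, with 8 of 8 G2 and M and 0 of 8 S-phase markers raised, had a summed level of 32.9 and 24.7.

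The 10 genes were also counted within single cells. These counts largely restate the level of each gene, and what genes found independently would give was not computed. At 4500 UMIs a state 5 cell had a mean of 7.85 and 7.36 of the 10 genes, a state 2 cell 6.56 and 5.97 and a pluripotent-like cell 1.85 and 1.49. At least 5 of the 10 genes were found in 98.3% and 96.9% of state 5 cells and in 4.11% and 2.81% of the pluripotent-like state. None of the state 5 cells lacked all 10 genes, whereas 15.1% and 22.3% of the pluripotent-like state did. Levels still varied widely inside a state, with the summed level of single state 5 cells running from 32.3 (5th percentile) to 240 (95th percentile) in replicate 1 and from 26.0 to 228 in replicate 2.

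**Figure D4:**
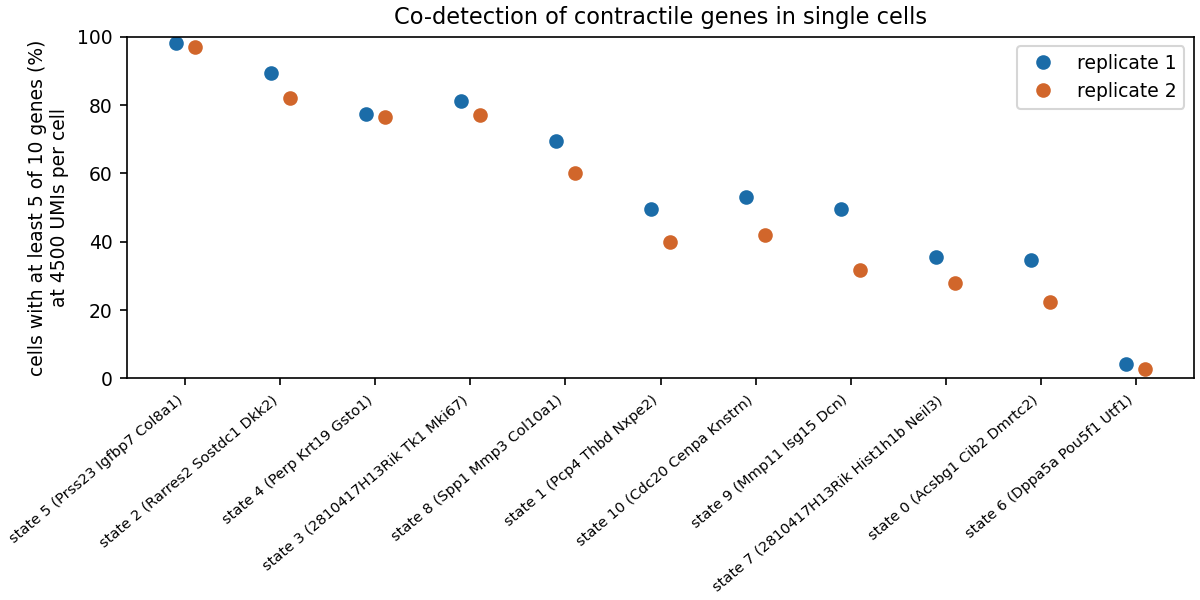
Points give the share of cells (%) with at least 5 of the 10 genes at 4500 UMIs per cell, for each of the 11 states and each library. State 5 is at 98.3% and 96.9%, and pluripotent-like cells are at 4.11% and 2.81%.

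Over all cells of a library, thinned to 4500 UMIs, the 45 pairs of the 10 genes had a median Pearson r of 0.383 and 0.340, which was 0.357 and 0.293 outside the pluripotent-like cells and 0.310 and 0.244 within state 5. The median over all gene pairs was 0.00120 and 0.00129, and over pairs of the 1080 genes with a level of at least 1 it was 0.00433 and 0.00484. The closest pair was Acta2 and Tagln at 0.703 and 0.680, followed by Acta2 and Actg2 at 0.681 and 0.648. The loosest was Mylk and Actg2 at 0.195 and 0.0832. Cells of a library share that library, and sparse genes such as Mylk and Cnn1 are bound to low values.

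Over the 11 states the genes most like the mean of the 10 members included Fhl1, Myh9, Zyx, Vcl and Tln1, with r between 0.933 and 0.979 in each library. Myh9 is a non-muscle myosin heavy chain, and Zyx, Vcl and Tln1 encode the adhesion proteins zyxin, vinculin and talin. Vgll3, Ddah1, Tmsb4x, S100a11 and Abracl made up the rest of the nearest 10. The gene nearest Acta2 was Tpm4 (0.961 and 0.963), another tropomyosin, and the one nearest Tpm2 was Myh9 (0.973 and 0.987). The neighbours of Mylk were Fgf7 and Fst, which encode secreted proteins, and Pcdh19, a protocadherin, with r from 0.953 to 0.979. Cald1 was nearest to Serpinh1 (0.972 and 0.978), a collagen chaperone. These values rest on 11 states that share libraries and depth, and are given as a description.

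Other genes of the contractile and related pathways were counted from fixed lists. Of 10 late smooth-muscle genes 9 were in the table and 4 reached a mean of 0.1, and 0 of the 4 were at least 2-fold lower in the pluripotent-like state of each library (15.0% of all genes). For Lmod1 and Hspb6 the added 0.1 sets much of the ratio. Lmod1 was at 0.014 and 0.018 in pluripotent-like cells against 0.254 and 0.106 in the other cells. Hspb6 was at 0.019 and 0.028 against 0.153 and 0.115. Smtn was at 0.086 and 0.108 against 0.145 and 0.105, and Ppp1r14a was not lower (below). Myh11, the smooth-muscle myosin heavy chain that defines the mature cell, was at 0.18 and 0.06 in state 5 and below that elsewhere, and Kcnmb1 was at or near 0. Lmod1, an actin-filament nucleator, was highest in state 5 at 0.74 and 0.43, as was Ppp1r14a, an inhibitor of myosin phosphatase, at 1.46 and 0.98. Ppp1r14a was not low in pluripotent-like cells, at 0.59 and 0.64. Smtn, smoothelin, was at 0.31 and 0.22 in state 5 and highest in state 8, at 0.37 and 0.29. The late list was thus mixed in state 5. Ppp1r14a and Lmod1 were captured there, Myh11 was low but highest there in both libraries, and Kcnmb1 was near 0.

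Among 16 non-muscle actomyosin genes, 4 were at least 2-fold lower in the pluripotent-like state of each library (15.0% of all genes), 8 had a 4-fold range (15.5%) and 9 were highest in state 5 (8.09%). Actb, cytoplasmic beta-actin, was at 45.2 and 39.6 in state 5 and 13.6 and 12.1 in pluripotent-like cells, and Actg1, cytoplasmic gamma-actin, was at 31.1 and 30.3 against 8.99 and 10.9. Against all other cells, Actb was lower by a log2 ratio of −0.97 and −0.76 in pluripotent-like cells, where that of Acta2 was −4.21 and −3.87. The 4 lower genes of this list were Tpm4, Csrp1, Myh9 and Vcl. Tpm4 had a log2 ratio of −2.81 and −2.38, close to that of the member Tpm2 at −2.81 and −2.33. Of 12 genes in the table of the serum response factor pathway and myosin control, 10 reached a mean of 0.1. Of these 10, 4 were lower in pluripotent-like cells (15.0% of all genes) and 3 were highest in state 5 (8.09%). Fhl2 was at 0.05 and 0.03 in pluripotent-like cells against 0.69 and 0.48, whereas Csrp2 was at 3.92 and 2.73 against 1.38 and 1.36. Of 15 TGF-beta ligands, receptors and targets in the table, 13 reached a mean of 0.1. Of these 13, 7 were lower (15.0% of all genes), 9 had a 4-fold range (15.5%) and 3 were highest in state 5 (8.09%). Thbs1, an activator of latent TGF-beta, was at 15.0 and 11.3 in state 5 and 0.12 and 0.11 in pluripotent-like cells. In replicate 2 Thbs1 was highest in state 8, at 12.9. Smad7, an inhibitor of TGF-beta signalling, was at 0.49 and 0.45 in pluripotent-like cells against 0.18 in the other cells of both libraries. Of 8 pericyte markers 2 reached a mean of 0.1. Pdgfrb, a growth factor receptor also made by fibroblasts, was at 1.96 and 1.73 in state 5 and 0.02 and 0.05 in pluripotent-like cells, and Cspg4 was at 0.30 and 0.19 in state 5. Pdgfrb was highest in state 8 in replicate 1, at 2.16, and Cspg4 in state 8 in both libraries, at 0.33 and 0.40. Rgs5 was at or near 0. Of 11 striated-muscle genes in the table only Mylpf reached 0.1, and it was higher in pluripotent-like cells, at 2.43 and 1.64 against 0.03 in both libraries.

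All 10 genes were higher in replicate 1 than in replicate 2, and with 1 library on each side this describes the libraries only, in which system and library cannot be told apart. The median over all genes was also above 0, so the direction alone does not set the 10 genes apart. Mylk was the only one at least 2-fold higher (0.540 and 0.149, or 2.57-fold), which was the case for 0.210% of all genes tested. Acta2 was at 17.8 and 10.5 over all cells, 1.69-fold higher, and the smallest difference was that of Cald1, 1.28-fold. The median log2 ratio of the 10 genes was 0.71, against 0.06 over all genes.

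The make-up of the libraries moved with this difference. State 5 was 11.3% and 6.52% of cells, state 2 was 17.2% and 7.92%, and pluripotent-like cells were 4.70% and 9.99%. With equal weight to each of the 11 states the median log2 ratio fell to 0.28, against 0.05 over all genes, and Acta2 was 1.26-fold higher, while Mylk stayed 2.04-fold higher. All 10 genes were higher in replicate 1 in most states, as were 66.8% of all genes, and 6 of the 10 in every state, against 4.68%. Over the 110 pairs of gene and state, 101 were higher in replicate 1, a count for which no share over all genes was computed. Tpm2, Cald1, Cnn2 and Tagln were the genes with a state in which replicate 2 was higher, such as Cald1 in pluripotent-like cells (0.522 and 0.682).

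**Figure D5:**
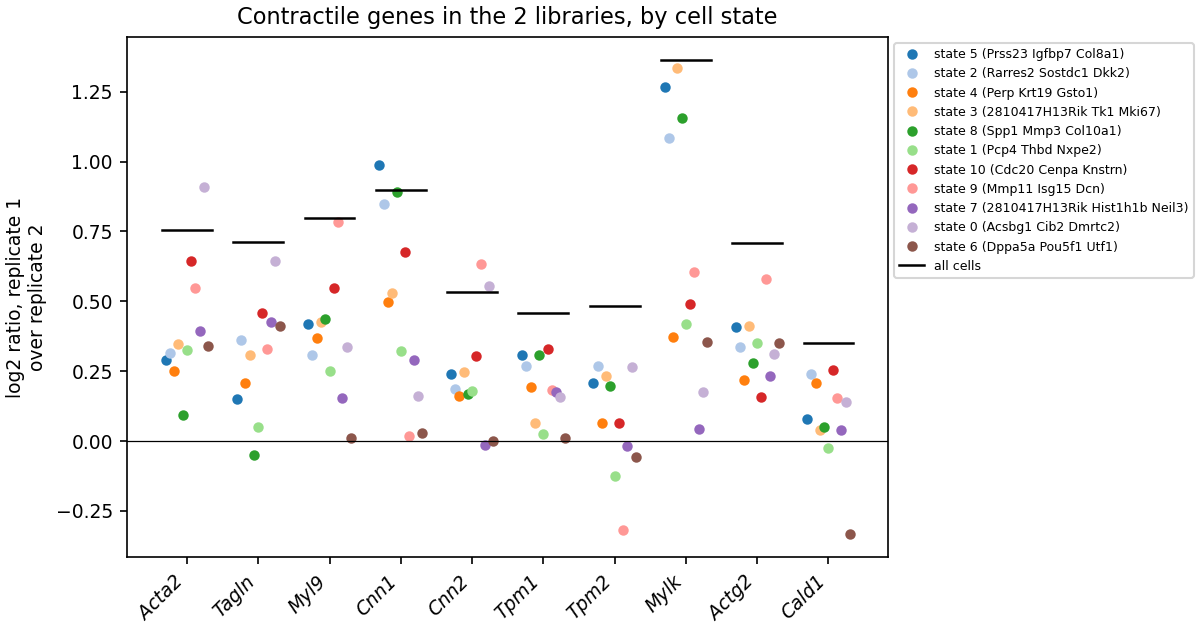
Points are log2 ratios of the level (mean UMIs per 10000, plus 0.1) in replicate 1 over replicate 2, coloured by state, and black bars are the same ratio over all cells. Of the 110 points 101 lie above 0, and the bar of Acta2 lies above its points for every state but state 0.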

How the data were processed

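Single-cell 3′ RNA-seq libraries (Chromium V2 chemistry) were prepared from trypsin-detached, unsorted cells at day 16 and sequenced. Per the submitters' processing notes, reads were processed with Cell Ranger (version 2.1.1) on mm10 and with Seurat. The table deposited by the authors holds natural log values, ln(1 + UMIs per 10000 UMIs of the cell). It was made by the authors, who kept cells with 1500 to 6000 genes and under 9% mitochondrial RNA. Whole UMIs were recovered from the table (100% of values whole within 0.01), with 4753 to 60990 UMIs per cell. Cells were assigned to libraries by the library tag at the start of each cell name. Removal of doublets before deposit is not stated in the sources used, and no doublet caller was run.

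Cells of both libraries were clustered with scanpy (version 1.11.5) and leidenalg (version 0.10.2) on 2000 variable genes, 30 principal components and 15 neighbours at resolution 1, with 686 genes left out. A state was named only where at least 3 and at least 50% of a class's markers were 2-fold raised. Profiles were means of linear values per 10000, ratios used a pseudocount of 0.1, and intervals are exact at 95% and cover counting error only. For shares of cells, each cell was thinned to 4500 UMIs, and 0 cells were too shallow. The fold computation was tested on simulated data. The genes named were the members, up to 4 of each list by their mean level, and the genes nearest in pattern over states. Myh11, Kcnmb1, Rgs5 and Smad7 were added after their values were seen. The members and lists were chosen with earlier results of these data known. Gene positions are from GENCODE on GRCm38. Other steps used numpy 2.4.6, pandas 2.3.3, scikit-learn 1.9.0 and scipy 1.17.1 under Python 3.11.15.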

Additional observations from a re-analysis of the deposited data

How the results depend on the processing

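Pluripotent-like and other cells were compared within each library, and the labels give no second group to pair. Of 62 recomputed main values, 54 stayed within their limits and 8 moved, and no ratio or correlation changed direction. Some of the 54 could not have moved. The limit of the median ratio and correlation was the SD of the 2 libraries, more than leaving out a library can shift them. Dropping the filter on low values could not change a count, as all 10 genes pass it. The median log2 ratio in pluripotent-like cells was −2.67 and became −3.16 with a pseudocount of 0.01 and −1.38 with a pseudocount of 1. The number of genes at least 2-fold apart between the libraries, 1 (Mylk), became 2 and 0 with those pseudocounts and 0 without state 5, a setting chosen after seeing the data. The count of genes lower in pluripotent-like cells ran from 7 (pseudocount 1) to 10, and that of genes with a 4-fold range from 6 to 10. The mean over libraries of the median correlation, 0.361, became 0.503 at full depth, 0.325 outside the pluripotent-like cells and 0.316 without state 5. Leaving out a library gave a median log2 ratio of −2.98 to −2.37 and a median correlation of 0.340 to 0.383. Few UMIs limit Cnn1 and Mylk outside state 5, and the small states hold too few cells for comparison.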

Other observations

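Small states, too thin for the comparisons above, carried the 10 genes in other proportions. State 12 (Trf, Saa3, Upk1b, Msln), with 1 and 41 cells, had 5 of 11 epithelial and 4 of 11 fibroblast markers raised. In its 41 cells of replicate 2 Acta2 was at 1.39, Tagln at 0.540 and Actg2 at 0.294, while Mylk was at 1.76, Cald1 at 10.1, Tpm1 at 6.60 and Tpm2 at 1.98. In state 5 of the same library Acta2 was at 30.5 and Mylk at 1.21. Mylk came from 79 UMIs and was found in 34.1% of the 41 cells at 4500 UMIs (exact 95% interval 20.1% to 50.6%).

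The epithelial-like cells of state 11 (9 of 11 epithelial markers raised, 64 and 4 cells) had Acta2 at 2.81 and 3.86 and Tagln at 0.553 and 1.08, and no Mylk UMI. These values were singled out after they were seen and have no replicate of useful size.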
